A study of Mus musculus with 96 samples.

Results

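The set described here is a group of 10 detoxification genes, the glutathione transferases Gsta1, Gsta2, Gsta3, Gsta4, Gstm1, Gstm2, Gstm3, Gstp1 and Gstt1 together with the quinone reductase Nqo1. They are 10 of the 56941 gene rows of a table of estimated RNA-seq counts from mouse tissue, and all 10 were found there by gene name. The genes were chosen with their levels in these libraries known, for how they differ between tissues and for how they vary in liver beside the reprogramming factor Pou5f1. Their tissue levels and their relation to Pou5f1 are therefore a description and carry no test.

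The study compared mouse strains built to switch on the reprogramming factors Oct4 (Pou5f1), Sox2, Klf4 and Myc in the living animal. Bulk RNA was sequenced from frozen tissue of mice aged 2 months. The labels give 5 genotypes, which are WT mice, titled as controls, and the reprogrammable strains 4Fj, 4FsB, 4Fk and 4FsA. They give no treatment, inducer or time of induction, and no promoter or insertion site of the transgenes. The libraries come from liver, kidney, small intestine, brain and skeletal muscle, with 15 from each, from heart, with 14, and from spleen, with 7. Most tissue and genotype groups hold 3 samples, the WT heart group holds 2 and the 4Fj spleen group holds 1. The spleen libraries come from WT, 4Fj and 4FsA mice. Each column of the count table names a tissue and a running number but no genotype, so the 96 libraries were grouped by tissue alone and every tissue group mixes genotypes. A library is called here by the number in its column name (liver library 5), and that number says nothing of genotype, nor of whether libraries of 2 tissues came from one animal.

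Glutathione transferases are cytosolic enzymes that join the thiol of glutathione to reactive electrophiles, such as drug metabolites and products of lipid peroxidation, so that these can be exported. Nqo1 reduces quinones by a 2-electron step that avoids semiquinone radicals. Many of these genes are activated through antioxidant response elements bound by the transcription factor NRF2 (gene Nfe2l2), which KEAP1 holds in check until it is modified by electrophiles. Liver is the tissue best known for their abundance.

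Library totals ran from 6624474 to 17882603 estimated counts, so that a count of 0 allowed a level of up to 0.168 to 0.453 CPM (the count divided by the library total, times 1000000). That limit covers counting error only. No 2 libraries of a tissue held the same values in any of 637 pairs. The marker list of each labelled tissue had its highest median sum in that tissue. The sum of 8 hepatocyte markers was 55618 to 130449 CPM in liver. Some of these 8, such as Apoa1 and Apob, are also made by enterocytes. Several libraries stood apart. Mitochondrially encoded genes took 62.3% and 78.8% of the counts in small intestine libraries 5 and 6. Small intestine library 4 held 28323 CPM of 6 exocrine pancreas markers, against 1.4 to 21 in the other 14. Spleen library 2 held 4973 CPM of hepatocyte markers, against 1.8 to 40.9 in the other 6. The results that rest on these libraries are given with and without them. In bulk tissue, fewer cells of a type and less RNA per cell cannot be told apart.

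The 2 alpha-class genes Gsta1 and Gsta2 are close copies, and their upstream sequences show it. The 250 bases before the start of each gene are shown, from RefSeq on build GRCm38.p6, with the longest run that both hold, 29 bases, in capitals. The window of Gsta1 lies at chr9:78230419-78230668 on the plus strand and that of Gsta2 at chr9:78347146-78347395 on the minus strand. A global alignment of both windows had 184 identical columns of 261, or 70.5%. The third window is that of Gsta3, at chr1:21240335-21240584 on the plus strand. Its capitals mark the only match among the members to the antioxidant response element core TGACNNNGC.
Gsta1: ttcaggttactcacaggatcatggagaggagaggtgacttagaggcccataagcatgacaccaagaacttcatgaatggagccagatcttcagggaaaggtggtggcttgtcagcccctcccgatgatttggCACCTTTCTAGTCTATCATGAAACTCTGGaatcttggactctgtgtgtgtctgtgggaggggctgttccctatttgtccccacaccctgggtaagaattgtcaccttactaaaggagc
Gsta2: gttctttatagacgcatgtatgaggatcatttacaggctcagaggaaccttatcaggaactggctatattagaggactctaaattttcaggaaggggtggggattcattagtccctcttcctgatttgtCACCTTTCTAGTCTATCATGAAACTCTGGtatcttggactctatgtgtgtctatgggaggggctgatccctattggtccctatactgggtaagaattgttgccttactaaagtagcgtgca
Gsta3: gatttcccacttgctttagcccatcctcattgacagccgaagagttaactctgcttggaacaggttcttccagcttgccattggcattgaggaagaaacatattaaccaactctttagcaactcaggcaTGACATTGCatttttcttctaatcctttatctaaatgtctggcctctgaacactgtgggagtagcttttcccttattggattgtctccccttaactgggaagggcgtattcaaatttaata
That core was searched on both strands of windows from 250 bases before to 50 bases after each start. It was found in 12.4% of the 32851 windows in the table, and in 1 of the 9 members with a window there (all but Gsta4). The Gsta3 match begins 121 bases before the start. A match is a description of letters, and the absence of a match says only that these letters are not in the window.

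Paralogs of this kind can share reads, and how the authors' counting divided them is not given in the sources used here. Of the 100-base stretches of the Gsta1 transcript in the GENCODE M21 annotation, 71.3% also occur in Gm3776, a gene model of the same cluster, and 19.8% occur in Gsta2. For Gstp1, 52.8% of such stretches occur in Gstp2. In Gstm3 3.80% and in Gstm1 1.68% are shared, while Gsta3, Gsta4, Gstm2, Gstt1 and Nqo1 share none with the paralogs searched. Values of Gsta1, Gsta2 and Gstp1 are uncertain to that extent, and their sums with the near-copies are given for liver libraries only.

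**Figure D1:**
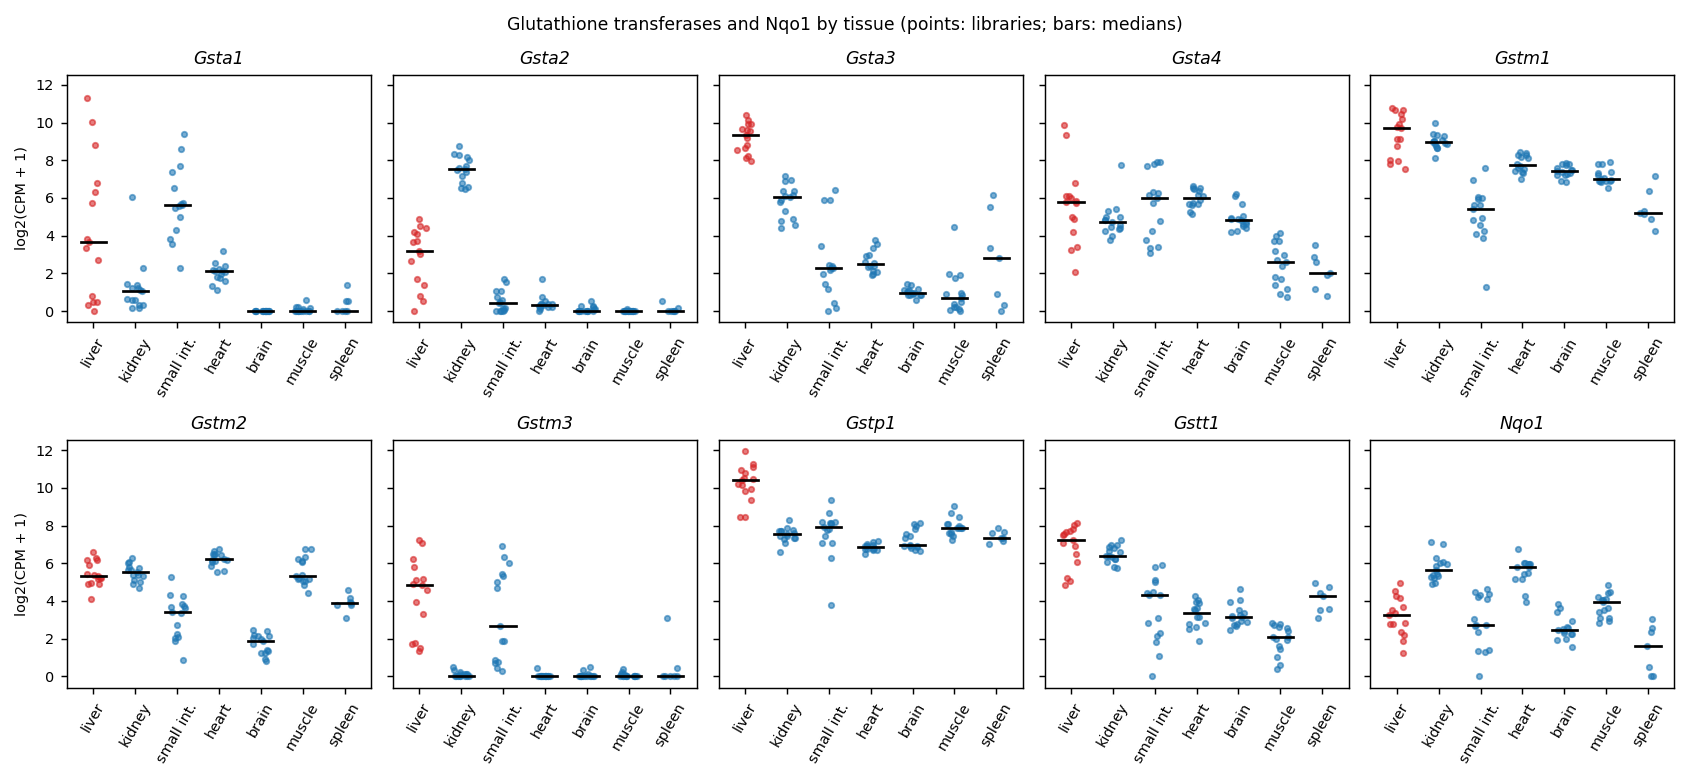
Level of each of the 10 genes as log2(CPM + 1) in each of 96 libraries, by tissue; each point is 1 library, liver in red and other tissues in blue, and bars are medians. Gsta3 and Gstp1 sit highest in liver, Gsta2 in kidney, Gsta1 and Gsta4 spread widely in liver and small intestine, and Nqo1 is higher in heart and kidney than in liver.

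Liver held the highest median for 5 of the 10 genes (Gsta3, Gstm1, Gstm3, Gstp1 and Gstt1), small intestine for Gsta1 and Gsta4, heart for Gstm2 and Nqo1, and kidney for Gsta2. Neighbours in the order of tissue medians mostly overlapped. Of 60 neighbouring pairs, the ranges of 4 did not overlap, and these were Gsta2 in kidney above liver, Gsta3 in liver above kidney, Nqo1 in kidney above muscle, and Gsta1 in kidney above brain. The Gsta1 pair rests on kidney values down to 0.119 CPM, which are not told from 0. Neither this count nor that of leading tissues was made for all genes, so neither is read as particular to these 10. The median reached 1 CPM in 55 of the 70 combinations of gene and tissue.

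The alpha class differed most from gene to gene. Gsta3, the enzyme that conjugates the epoxide of aflatoxin in mouse liver, had its highest levels in liver. Its level ran from 251 CPM through a median of 650.2 to 1358 CPM in liver. In kidney it ran from 20.5 through 65.3 to 141 CPM, so that every liver library lay above every kidney library. Its medians in spleen, heart and small intestine were 5.99, 4.57 and 3.83 CPM, in ranges that overlapped each other, and it was under 1 CPM at the median in brain and muscle.

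Gsta2 was the kidney transcript of the class. Its lowest, median and highest kidney values were 86.6, 186 and 429 CPM. In liver it ran from 0 through 8.22 to 28.7 CPM, entirely below kidney. The highest value in the other 5 tissues was 2.30 CPM, in heart. Gsta1, with a similar upstream window, followed another order. It was highest in small intestine, at 3.90, 48.0 and 683 CPM for the lowest, median and highest library. Leaving out small intestine library 4, which held the highest value and the pancreas markers, gave a median of 47.2 and a highest value of 384 CPM. Liver came next, from 0 through 11.9 to 2564 CPM, a spread that covers the whole small intestine range. Kidney was at 1.07 CPM at the median, with library 5 at 65.3 CPM and the next at 3.83. Gsta1 was listed at 0 in all 15 brain libraries and in 10 of 15 muscle libraries.

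Gsta4 acts on 4-hydroxynonenal, an aldehyde from oxidised lipids, and was found in every library. Its medians in small intestine, heart and liver were 63.0, 62.8 and 53.6 CPM, in overlapping ranges. Heart was the most even of the 3, from 34.8 to 100.1 CPM, whereas small intestine ran from 7.54 to 237 and liver from 3.18 to 922 CPM. Leaving out the small intestine libraries rich in mitochondrial counts put heart first for this gene and changed the leading tissue of no other. In kidney, 14 libraries lay between 12.5 and 41.9 CPM, and library 1 stood at 214 CPM. That library was the only one of 15 in kidney with Ddx3y, a Y-linked gene, at 0, and the part of sex in the value was not tested. Brain libraries 1, 2 and 3 held 50.2, 67.7 and 73.8 CPM of Gsta4, above the other 12. Ddx3y was at 0 in brain libraries 1 and 2 and at 57.3 CPM in library 3, and the part of sex in these values was not tested.

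In the mu class, Gstm1 was found in every library. It ran from 183 through 823 to 1775 CPM in liver and from 277 through 501 to 1003 CPM in kidney, and these ranges overlapped. Medians in heart, brain and muscle were 213, 173 and 130 CPM, and those in small intestine and spleen were 42.4 and 36.1 CPM. Gstm2, known in humans as the muscle form, was highest in heart, at 44.9, 73.3 and 108 CPM for the lowest, median and highest library. Kidney, liver and muscle followed at medians of 45.4, 39.8 and 39.6 CPM, and brain was lowest at 2.65 CPM. The order of these 3 depends on the scaling, since muscle came second with trimmed-mean scaling and with mitochondrial genes left out of the total. Gstm3 was a gene of liver and small intestine. It ran from 1.53 through 27.8 to 148 CPM in liver and from 0.238 through 5.49 to 118 CPM in small intestine. That median was 24.6 CPM when the 2 small intestine libraries rich in mitochondrial counts were left out. The highest value in kidney, heart, brain or muscle was 0.412 CPM, in a brain library.

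Gstp1, the pi-class enzyme, had the highest level per length of the set in liver. Divided by transcript length in the GENCODE M21 annotation, its liver median was 1653 CPM per kilobase, followed by Gstm1 at 639, Gsta3 at 446 and Gstt1 at 134. On the same scale Gsta4 was at 54.8, Gstm2 at 37.4, Gstm3 at 21.2, Gsta1 at 13.6, Gsta2 at 9.45 and Nqo1 at 5.47. As a level per library, Gstp1 ran from 344 through 1357 to 3949 CPM in liver. The other tissues had medians between 113 CPM in heart and 243 CPM in small intestine. The near-copy Gstp2 had medians of 117 CPM in muscle, 43.8 in small intestine and 12.9 in liver. The order of muscle and small intestine for Gstp1 may therefore depend on how shared reads were divided. Gstt1, the theta-class enzyme that acts on small halogenated molecules, ran from 28.2 through 148 to 277 CPM in liver. Kidney followed, from 52.9 through 84.0 to 152 CPM, within the liver range. All other tissue medians were at or below 19.1 CPM.

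Nqo1 was higher in heart and kidney than in liver. Its lowest, median and highest values were 14.4, 55.3 and 106 CPM in heart and 28.9, 49.1 and 141 CPM in kidney, which overlapped. Muscle stood at a median of 14.4 CPM and a highest value of 27.3 CPM, below every kidney library but overlapping heart. Liver ran from 1.36 through 8.49 to 29.7 CPM, and small intestine, brain and spleen had medians of 5.63, 4.41 and 2.03 CPM. The lowest 2 heart values, 14.4 and 18.2 CPM, came from libraries 13 and 14, which also had the highest mitochondrial shares of the heart libraries, 40.2% and 38.6%. The part of that share in the values was not tested. In brain, libraries 1, 2 and 3 were highest for Nqo1 (9.8, 11.2 and 13.5 CPM) as they were for Gsta4 and Gstp1.

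Scaling by trimmed means of M values (TMM) in place of library totals gave each library its own factor. The shift of liver relative to another tissue was taken from the median log2 factor of each tissue. The shift was 1.13 against spleen, 0.97 against brain, 0.61 against kidney, 0.46 against small intestine, 0.15 against heart and -0.12 against muscle. The leading tissue stayed the same for all 10 genes under that scaling and with mitochondrial genes left out of the totals. The tissue next to it changed for Gstp1, from small intestine to muscle, and for Gstm2, from kidney to muscle.

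**Figure D2:**
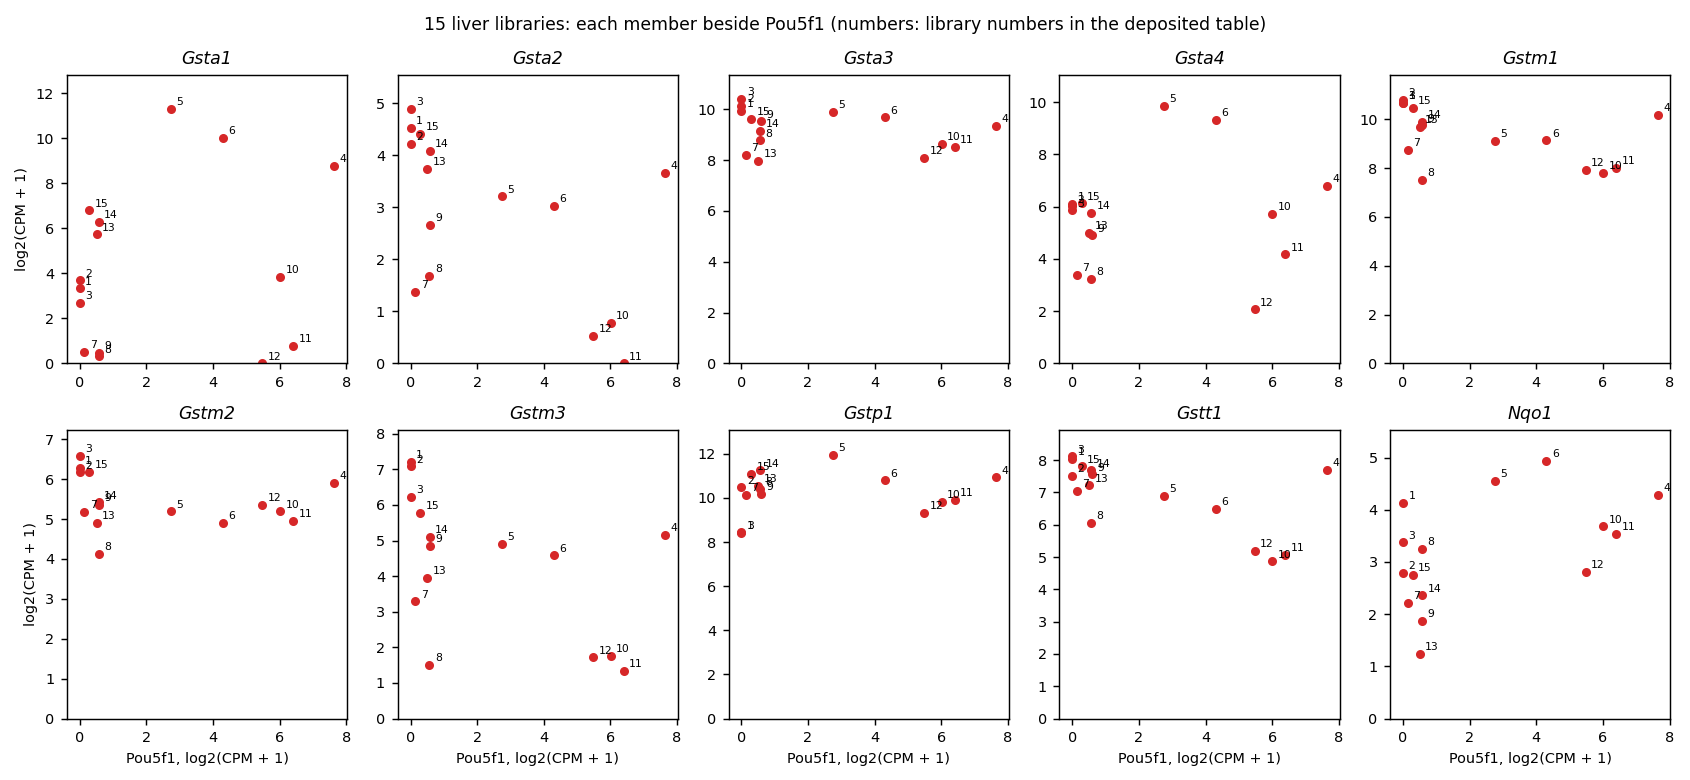
Level of each of the 10 genes against Pou5f1 in the 15 liver libraries, both as log2(CPM + 1); each point is 1 library and carries its library number. Libraries 4, 5 and 6 hold the top 3 Gsta1 and Gsta4 values at unlike Pou5f1 levels, and libraries 10, 11 and 12 hold low Gstm3 and Gstt1 values beside high Pou5f1.

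Within liver, Gsta1 varied more than nearly every other gene. Its SD over the 15 libraries was 3.73 on the log2(CPM + 1) scale, larger than that of 99.98% of the 9392 liver genes with a median of at least 5 CPM. Gsta4 followed at 2.07, Gstm3 at 1.99 and Gsta2 at 1.60, against 0.693 for the median gene. Gsta3 and Gstm2 varied about as the typical liver gene did, at 0.78 and 0.66. The members were chosen partly for this variation, so these ranks are a description.

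The 15 liver libraries were set in order of their Pou5f1 level, which is the endogenous gene and any transgene together where the counting assigned both to this row. Library 4 had the most Pou5f1, 199 CPM, beside 200.5 of Sox2, 341 of Klf4 and 424 of Myc. It held 442 CPM of Gsta1, 111 of Gsta4, 1965 of Gstp1 and 18.5 of Nqo1. It ranked 3 of 15 for Gsta1, Gsta4 and Nqo1 and 4 of 15 for Gstp1. Its Gsta2, Gsta3 and Gstm2 values, 11.7, 650.2 and 59.1 CPM, lay in the middle of the liver range or a little above.

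Libraries 11, 10 and 12 came next, with 83.4, 63.4 and 43.6 CPM of Pou5f1, and several of their transferases were low. Gsta1 was at 0.725, 13.3 and 0 CPM there, Gstm3 at 1.53, 2.40 and 2.30 CPM, and Gstt1 at 32.5, 28.2 and 35.6 CPM. The Gstt1 values were the lowest 3 of the 15. Gsta2 was likewise at the bottom, at 0, 0.715 and 0.442 CPM. Gstp1 stood at 973, 912 and 646 CPM, below every liver library but 1 and 3. Nqo1 was not low in these libraries, at 10.6, 11.9 and 6.0 CPM around a liver median of 8.49. Lcn2, an acute-phase gene, was at 1354, 1236 and 3490 CPM in them, and 5 neutrophil markers summed to 190, 255 and 70.8 CPM, while the hepatocyte markers summed to 87085, 75456 and 92026 CPM. The part of those changes in the transferase values was not tested.

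Libraries 6 and 5 had less Pou5f1, 18.7 and 5.71 CPM, and the most Gsta1. Gsta1 was at 1039.6 CPM in library 6 and 2564 CPM in library 5. Gsta4 was at 637 and 922 CPM, with the next library at 111 CPM. Nqo1 was at 29.7 and 22.5 CPM, again the top 2 of 15, and Gstp1 at 1783 and 3949 CPM. The mu-class genes Gstm1 and Gstm2 were not high there. Gstm1 was at 563 and 558 CPM and Gstm2 at 29.0 and 35.7 CPM, both below the liver medians of 823 and 39.8 CPM. Gsta2, which shares some sequence with Gsta1, was at 7.14 and 8.22 CPM, so that the estimated count of Gsta1 was 146 and 312 times that of Gsta2. The near-copy Gm3776 was high with Gsta1, at 564 and 876 CPM, and the sum of Gsta1, Gsta2 and Gm3776 was 1611 and 3447 CPM against 603 in library 4 and 182 or less in the other 12. Albumin was at 36541 and 34610 CPM in libraries 6 and 5, which with libraries 13 (32793 CPM) and 14 (36194 CPM) were the 4 lowest of 15.

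The remaining 9 libraries had Pou5f1 below 0.5 CPM, and the genes still varied among them. Gsta1 was at 111, 77.9 and 52.7 CPM in libraries 15, 14 and 13, at 11.9, 9.06 and 5.46 CPM in libraries 2, 1 and 3, and at 0.423, 0.395 and 0.238 CPM in libraries 7, 9 and 8. Libraries 1, 2 and 3, with no Pou5f1 count, held the top 3 values of Gsta3 (979, 1126 and 1358 CPM), Gstm1 (1625, 1775 and 1647 CPM) and Gstm3 (148, 135 and 74.1 CPM). Library 8, at 0.483 CPM of Pou5f1, was the lowest for Gstm1 and Gstm2, at 183 and 16.5 CPM, and next to lowest for Gstm3, at 1.83 CPM. With trimmed-mean scaling within liver, library 10 was the lowest for Gstm1, at 181 CPM. Neither Gsta1 nor Gsta4 followed the order of Pou5f1.

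Gstp1 was lowest in liver libraries 1 and 3, which held the top 2 values of Gsta2, Gstm2 and Gstt1. It was at 344 CPM in library 1 and 346 CPM in library 3, and the next lowest value was 646 CPM. Those libraries held 234 and 158 CPM of Cyp2b9 and 38.8 and 15.0 CPM of Cyp2b13, cytochrome P450 genes known for female-biased expression in mouse liver, which were at most 28.1 and 0.685 CPM in the others. Ddx3y was at 0 in library 1 and at 83.2 CPM in library 3, so the Y-linked gene separated the pair. Adding the near-copy Gstp2 left both at the bottom, at 347 and 348 CPM.

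Liver libraries 5 and 6 also led several genes outside the set, in lists of related pathways written with earlier results known. Of 29 NRF2 target genes with a liver median of at least 1 CPM, library 5 held the highest value for 7 and library 6 for 5, while library 5 led 14.9% and library 6 led 4.99% of 12513 such genes. Prdx1, a peroxidase, was at 2225 and 1482 CPM against a liver median of 666. Libraries 10 and 11, at 1606 and 1548 CPM of Prdx1, lay above library 6. Pgd, of the pentose phosphate pathway, was at 581 and 479 CPM against 88.1, and Aldh1a1, a retinaldehyde dehydrogenase, at 2303 and 2521 CPM against 496. Gclc, the catalytic subunit of glutathione synthesis and a textbook NRF2 target, was not high there, at 50.2 and 63.9 CPM below a median of 73.6, and it was highest in library 2 at 378 CPM. Nfe2l2 itself was highest in libraries 5 and 6, at 202 and 153 CPM, with a median of 91.5.

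Of the other transferases, Gsto1 stood at 411 and 794 CPM, Mgst2 at 35.8 and 27.0 CPM and Mgst3 at 301 and 248 CPM in libraries 5 and 6, each the top 2 of 15. Others of that list were low there. Mgst1 was at 902 and 659 CPM and Gstz1 at 208 and 191 CPM, below liver medians of 1657 and 362 CPM. Gstm6 was at 45.9 and 44.2 CPM, below a median of 58.7. Of 15 other transferases with a liver median of at least 1 CPM, library 5 led 4 and library 6 led 1. Txnrd1 and Gsr, reductases of the thioredoxin and glutathione systems, were highest elsewhere. Txnrd1 was at 301, 276 and 207 CPM in libraries 10, 11 and 12, and Gsr at 333, 294 and 223 CPM, whereas the liver medians were 102 and 67.4 CPM. Tiparp, a target of the aryl hydrocarbon receptor, was at 102, 97.5 and 88.4 CPM in the same 3. It was at most 17.1 CPM in the other 12. Cyp1a2, another target of that receptor, went the other way, at 35.0, 30.7 and 32.0 CPM against a liver median of 246. In the same 3, Gstt1 was at its lowest and Nqo1, an aryl hydrocarbon receptor target as well, near its liver median.

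In small intestine the 3 libraries with the most Pou5f1 were also set apart by Gsta3. Libraries 12, 11 and 10 had 139, 122 and 75.5 CPM of Pou5f1 and 59.3, 58.1 and 85.5 CPM of Gsta3, and no other library exceeded 9.90 CPM. Gsta4 was at 237, 210.1 and 237 CPM in them, and library 4 was also high at 224 CPM. Gstm3 was at 0.238, 0.833 and 0.70 CPM, Gstt1 at 1.11, 2.50 and 7.52 CPM, and Nqo1 at 1.43, 5.46 and 5.51 CPM. Libraries 8 and 6 were low too, at 0.379 and 0.627 CPM of Gstm3 and 6.22 and 0 CPM of Gstt1. The Nqo1 values of libraries 11 and 10 were near the tissue median of 5.63 CPM. Gsta3 was thus high in 3 of the libraries where Gstm3 was low. The hepatocyte markers, which are most abundant in liver, summed to 55.8, 483 and 769.6 CPM there, against a median of 7041 CPM over the 15. The enterocyte list summed to 109, 613 and 721 CPM, the lowest 3 of the 15. Fabp2, an enterocyte marker, was at 3.17, 113 and 277 CPM in these libraries and at least 255 in the other 12, and the proliferation gene Mki67 was at 252, 210 and 200 CPM against at most 167. Their part in the transferase values was not tested.

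In kidney, Pou5f1 was at most 18.5 CPM, in library 4. The members were highest in other libraries. Library 5, at 0.8 CPM of Pou5f1, held the highest Gsta1 (65.3 CPM), Gstm1 (1003 CPM, next 671) and Gstp1 (316 CPM, next 233), and 130 CPM of Nqo1 after the 141 CPM of library 11. Markers of the proximal tubule summed to 32629.6 CPM in library 5 and to 6313 CPM in library 11, in a tissue range of 5561 to 39052 CPM, and their part in the values was not tested. Gm3776 was at most 33.3 CPM in kidney, with the next library at 1.69.

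Spleen library 2 held the highest spleen value of 8 of the 10 genes, all but Gsta1 and Gstm2. The share of all genes highest in that library was not taken, so 8 of 10 is not read as particular to the set. Gsta2 was among the 8 at 0.431 CPM, close to the level that a count of 0 allows. Gsta3 was at 71.5 CPM in library 2, with a highest value of 44.2 CPM in the other 6. Gstm1 was at 144 against at most 81.2 CPM, and Gstm3 at 7.44 against at most 0.387 CPM. The hepatocyte markers of that library were 4973 CPM and its red cell markers 73125 CPM, and their part in these values was not tested. Without it, the spleen medians of Gsta3, Gstm1 and Nqo1 were 3.42, 35.5 and 1.22 CPM.

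**Figure D3:**
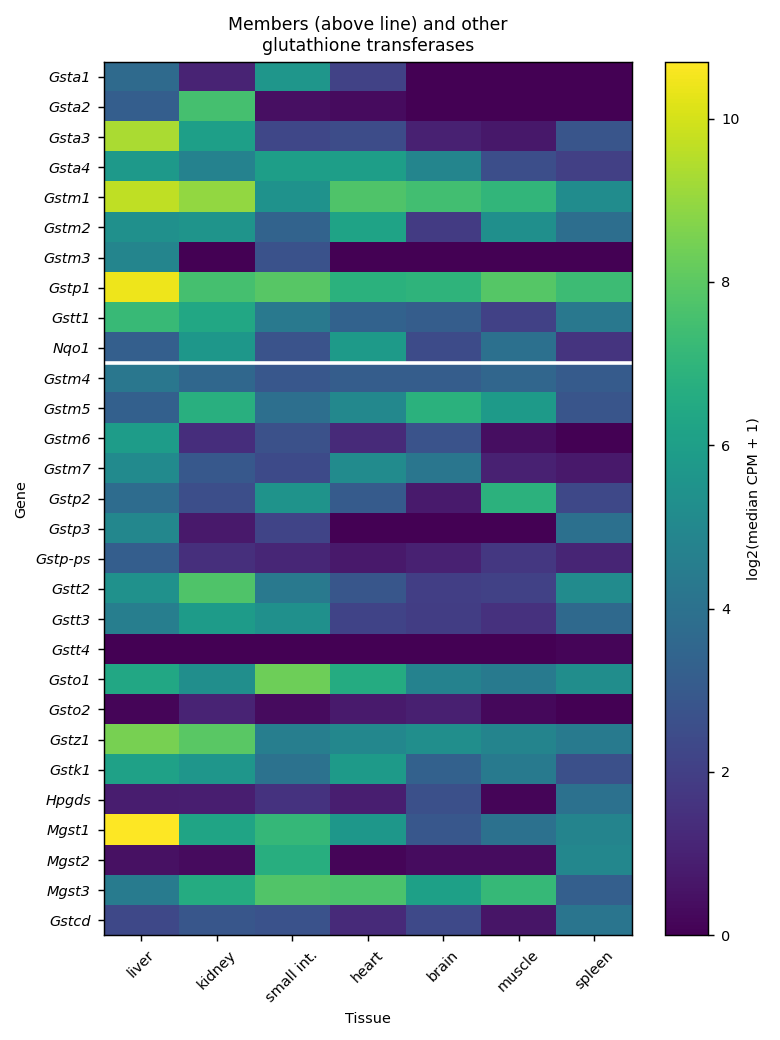
Median level of the 10 members (above the white line) and of 19 other glutathione transferase genes in 7 tissues, as log2(median CPM + 1), each gene in a row and each tissue in a column. Mgst1, Gstz1, Gstp1, Gstm1 and Gsta3 are brightest in liver, Gsta2 and Gstt2 in kidney, and Gsto1 and Mgst2 in small intestine.

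The other genes of the pathway were compared between liver and each other tissue with edgeR's quasi-likelihood test over 20100 genes and 96 libraries. A gene was called at a Benjamini-Hochberg adjusted p under 0.05 and a log2 fold change of at least 1 in size. The p-values measure only the spread between libraries, which mixes genotypes, and libraries of different tissues may come from the same animals. Over all genes, 15.9% were called higher and 21.1% lower in liver than in kidney, 19.5% and 25.7% against small intestine, 24.6% and 24.2% against heart, 29.1% and 32.7% against brain, 27.4% and 24.4% against muscle, and 22.7% and 27.4% against spleen. Counts for a list are read against these shares. The lists carry no test of their own.

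Of the other glutathione transferases 20 were listed, 19 were in the table by name and 18 were tested. In liver 11 were called higher and 3 lower than in kidney, with a median log2 fold change of 1.60 against 0 for all genes. The counts were 9 and 4 against small intestine, 11 and 3 against heart, 13 and 3 against brain, 13 and 4 against muscle, and 14 and 2 against spleen. In each comparison the share called higher was above that of all genes. Mgst1, a membrane-bound transferase and peroxidase, was called higher in liver in all 6, by 3.53 to 8.60 on the log2 scale. Its liver median was 1657 CPM, against at most 139 CPM in any other tissue.

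Gstz1, which acts in tyrosine breakdown, was called higher in all 6, by 1.27 to 5.13 on the log2 scale, as were Gstm6, by 2.04 to 7.59, and Gstp3, by 2.01 to 10.73. Gstp-ps, a pseudogene of the pi cluster, was likewise called higher in all 6, by 1.17 to 3.81. Gstm4 and Gstk1 were called higher in 5 each and Gstm7 in 5. Gstt2 was called higher in 5 and lower against kidney, where its median was 213 CPM against 41.6 in liver, and Gstt3 was called higher in 4.

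The remaining transferases did not share a direction. Gstm5 was called lower in 4 and higher in 1, with a brain median of 113 CPM against 8.73 in liver. Gsto2, a gene of low level in all tissues, was called lower in 5. Gstp2, the near-copy of Gstp1, was called higher in 4 and lower in 2, with a muscle median of 117 CPM. Mgst2 was called higher in 4 and lower in 2, and Mgst3 higher in 1 and lower in 3. Against small intestine, where their medians were 102 and 222 CPM, they were lower in liver, with log2 fold changes of -4.23 and -2.17. The liver median of Mgst2 was 0.389 CPM, and its highest liver values were 35.8 and 27.0 CPM, in libraries 5 and 6. Gsto1 was called higher in 4, and its fold change against small intestine was -0.86. Hpgds, which makes prostaglandin D, was called higher in 1 and lower in 2, and Gstcd higher in 2. Gstt4 did not exceed 1.41 CPM in any library and was not tested.

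**Figure D4:**
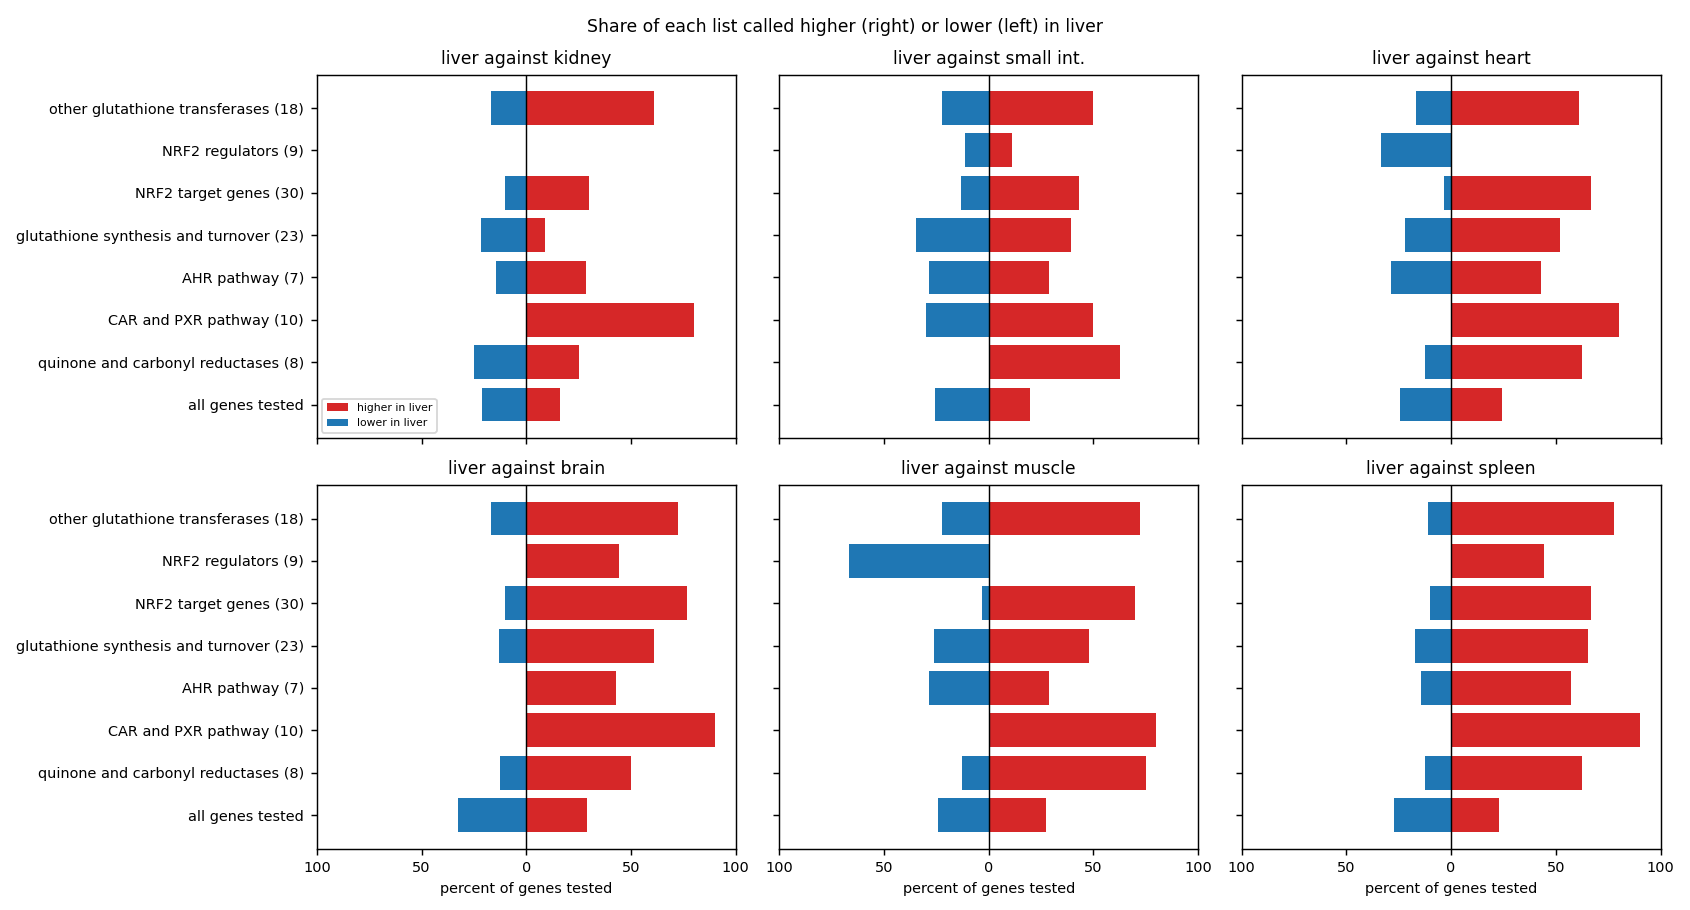
Percent of the tested genes of each list, and of all 20100 genes tested, called higher (red, to the right) or lower (blue, to the left) in liver than in each of 6 other tissues by edgeR's test; the number of tested genes of each list is in parentheses. The bars of 5 lists reach further to the right than that of all genes in every panel, and those of NRF2 regulators and of glutathione synthesis and turnover do so only in some panels. For the 7 genes of the AHR (aryl hydrocarbon receptor) list against muscle the margin is slight, 28.6% against 27.4%. The share of that list called lower there, also 28.6%, is above the 24.4% of all genes.

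NRF2 target genes were 30, all tested. Called higher and lower in liver were 9 and 3 against kidney, 13 and 4 against small intestine, 20 and 1 against heart, 23 and 3 against brain, 21 and 1 against muscle, and 20 and 3 against spleen. The esterase Ces1g, the exporter Abcc3, Aldh1a1 and the epoxide hydrolase Ephx1 were called higher in all 6, with mean log2 fold changes of 8.97, 5.02, 4.26 and 3.16. Nqo1, by contrast, had a lower median in liver than in kidney, heart and muscle. The 9 NRF2 regulators had no call against kidney, 1 higher and 1 lower against small intestine, 3 lower against heart, 6 lower against muscle, and 4 higher each against brain and spleen. None was called in all 6. Nfe2l2 had a liver median of 91.5 CPM, and its tissue medians ran from 12.5 CPM in brain to 145 CPM in small intestine.

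Of 23 genes of glutathione synthesis and turnover, 2 were called higher and 5 lower than in kidney, 9 and 8 against small intestine, 12 and 5 against heart, 14 and 3 against brain, 11 and 6 against muscle, and 15 and 4 against spleen. The glutathione peroxidase Gpx2 was called higher in 5 and lower against small intestine by 5.82 on the log2 scale. Its liver median was 1.53 CPM, with 40.0, 34.1, 29.9 and 15.4 CPM in libraries 6, 10, 5 and 11. Ggt7 and Gpx8 were called lower in all 6, at liver medians of 0.523 and 0.618 CPM. Of 7 genes of the aryl hydrocarbon receptor pathway, 2 to 4 were called higher and 0 to 2 lower in each comparison, and the receptor Ahr and its target Cyp1a2 were called higher in all 6.

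The CAR and PXR pathway, 2 nuclear receptors that sense foreign compounds, had 10 of 12 genes tested. Of these 8 were called higher than in kidney, 5 than in small intestine, 8 than in heart, 9 than in brain, 8 than in muscle and 9 than in spleen, and 3 were called lower, all against small intestine. Cyp2c29, Ugt1a1 and Nr1i3, which encodes CAR, were called higher in all 6, and Cyp3a13 was higher in 5 and lower against small intestine. Of 8 quinone and carbonyl reductases, 2 were called higher and 2 lower against kidney, and 4 to 6 higher and at most 1 lower elsewhere. Nqo2, the paralog of Nqo1, was called higher in liver in all 6, by 1.36 to 3.48 on the log2 scale, as was Cyb5r3, by 1.12 to 3.30. The Nqo2 median was 40.6 CPM in liver and at most 22.6 CPM in another tissue.

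The genes whose levels ran most like each member were ranked by Pearson's r of log2(CPM + 1) over 14678 genes and 96 libraries. Tissue differences dominate these values, and libraries of a tissue share it, so r is a description. Gsta2 ran most like Pkhd1, Keg1 and Slc17a1 (r of 0.96 each). Gsta3 ran most like C1rl (0.94), Gstm3 like Cyp3a11 (0.96), Gstt1 like Glyctk (0.92) and Gstm1 like Aldh7a1 (0.89). Gstm2 ran most like Cd300lg (0.88), Gsta1 like Tmprss4 (0.86) and Gstp1 like Mup21 (0.83). Nqo1 ran most like Chpt1, Acadm and Suclg1 (0.85 each), the last 2 being mitochondrial enzymes. Gsta4 had the weakest partner, Pcsk6 (0.73). With Spearman's rank correlation, 12 of the 30 named partners stayed among the top 3.

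Over the 15 liver libraries and 9051 genes, partners differed from those over all tissues. Gsta1 ran most like Pycard (0.94), Aspa (0.94) and Tspan15 (0.94), and Gsta4 like Aspa (0.96), Myh14 and Ehbp1l1. Gstm1 and Gstm3 shared Scd1, a fatty acid desaturase, at r of 0.96 each. Gsta2 ran most like Atp7b (0.97), Gstt1 like Hdac11 (0.97), Gsta3 like Anxa6 (0.94), Nqo1 like Rfk (0.93), Gstm2 like Atxn1 (0.90) and Gstp1 like Slc51a (0.84). Of these 30 liver partners, 4 stayed among the top 3 by Spearman's correlation.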

How the data were processed

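The table holds RNA-seq measurements of 96 mouse tissue libraries. RNA was extracted with TRIzol and a column kit and sequenced commercially, as the labels' protocols state. The authors deposited estimated counts per gene. Of the values above 0, 26.8% differ from a whole number by more than 1e-06. The submitters' processing notes name build GRCm39 and DESeq2. Aligner, counter, annotation and strand: not given in the sources used here. A second deposited table of normalised values was not used. Rows without a gene name, 310, held at most 0.113% of a library and stayed in the totals.

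Columns were matched to tissue labels by their tissue code, and no column carries a genotype, so no comparison of genotypes was made. CPM used library totals, and log values used a pseudocount of 1 CPM. The members and all lists were chosen with earlier results of these data known. For edgeR 4.0.16 (R 4.3.3), counts were rounded, filtered by filterByExpr and scaled by TMM, with tissue as the only factor. On simulated counts for liver against kidney over 16262 genes, 69% of genes changed 2-fold and 100% of those changed 4-fold were found. Found there meant an adjusted p under 0.05 alone, without the fold-change threshold. The simulation gave every gene a dispersion of 0.2, drew changed genes from those with higher counts and fitted only these 2 tissues. Its rates therefore do not describe the calls given above. DESeq2 1.42.0 was an alternative. Named genes were all members, all other transferases in the table by name, up to 4 genes per other list called in all 6 comparisons, and the 3 genes most like each member. Genes given by liver library outside that rule (Prdx1, Pgd, Gclc, Nfe2l2, Gsr, Txnrd1, Tiparp, Cyp2b9, Cyp2b13, Lcn2, Gm3776) were chosen after their values were seen. Upstream windows were aligned with Biopython 1.88. The transcript comparison and lengths used an annotation of another build than the counts. Whether samples of a group came from separate animals is not stated.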

Additional observations from a re-analysis of the deposited data

Results flagged for a closer look

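Spleen, with 7 libraries, was the only tissue with few enough to be checked for a library far from the rest, by comparing its gap to the nearest library with the range of the group. Among 20 such checks (the highest and the lowest library of each of 10 genes), 3 passed Dixon's critical value. Chance passes about 1 group in 20 where values are near normal. The groups that passed held 0 in 5 of 7 libraries for Gstm3, 5 for Gsta2 and 4 for Gsta1. That rate does not apply to them, since a few counts in 1 library make a large gap. Gstm3 was at 7.44 CPM in spleen library 2 with the next at 0.387 CPM, a gap of 0.948 of the range. Gsta2 was at 0.431 CPM in the same library, with the next at 0.117 CPM and a gap of 0.728 of the range. Gsta1 was at 1.59 CPM in spleen library 7, with the next at 0.455 CPM and a gap of 0.714 of the range. The Gsta2 value is close to the level that a count of 0 allows. Spleen library 2 is the one with 4973 CPM of hepatocyte markers, and their part in the values was not tested.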

How the results depend on the processing

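Under the alternatives, 146 values that sum up a comparison or a level (numbers of genes called, leading tissues and liver extremes) stayed within 1.5 times and 6 did not. The 6 came from fits of only the 2 tissues compared, which test fewer genes: 2758 genes lower in liver than in kidney, 2495 higher and 2847 lower than in small intestine, 3224 lower than in heart, and 3540 higher and 3031 lower than in muscle, against 4244, 3926, 5162, 4858, 5517 and 4896 with all tissues. For single genes and lists, 740 values stayed within the spread or 1.5 times and 82 moved, of which 31 when the highest library of a tissue was left out and 16 with Spearman's correlation. Fits without spleen library 2 and small intestine libraries 4, 5 and 6, and levels without spleen library 2 or small intestine library 4, were chosen after seeing the data. No paired analysis was possible because the columns carry no replicate numbers from the labels. Levels under 0.168 to 0.453 CPM, depending on the library, are not told from 0.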

Other observations

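In muscle, library 12 held 20.9 CPM of Gsta3, with the other 14 at most 2.93 CPM, and its hepatocyte markers summed to 3160 CPM, the highest of the 15. It also held the highest Pou5f1 of the muscle libraries, 6.45 CPM. In heart, library 9 held the highest Gsta3, 12.5 CPM, and the highest hepatocyte marker sum, 282 CPM. In spleen, library 4 held the highest Pou5f1, 14.3 CPM, and 44.2 CPM of Gsta3, after library 2. Their part in the values was not tested.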
